A study of Mus musculus with 4 samples.

Results

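The dual-specificity MAP kinase phosphatases were described through the chromatin contacts of their genes in 1 mouse list of H3K27ac HiChIP interactions. The group held 9 genes, Dusp1, Dusp2, Dusp4, Dusp5, Dusp6, Dusp7, Dusp8, Dusp10 and Dusp16, of 20665 coding genes on the autosomes. Every listed interaction was taken in which either anchor, a bin of 10 kb, overlapped the gene body or 2.5 kb beyond either end. This gave 209 of 99041 interactions (0.211%), and no interaction was taken for more than 1 of the genes. The interactions were chosen by the positions of their anchors, and the genes were picked with counts of this list already known, so their counts are a description without a test.

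The series consists of 4 HiChIP libraries, an assay that ligates neighbouring chromatin fragments and enriches those carrying an antibody target, here the acetylated histone H3 of active promoters and enhancers. There were 2 libraries of wild-type mouse neural stem cells, which the labels also call neural progenitor cells, kept in medium with EGF, basic FGF and heparin, and 2 of cells from brain tumors with the YAP-M fusion. YAP-M is read here as the fusion of YAP1 with MAMLD1. The labels give no strain, age, promoter of the fusion or number of animals, and the growth protocol attached to the tumor libraries is that of the neural stem cells. The list is read as that of the tumor from the letters YM in its name; it holds positions without read counts, scores or libraries, so depth and the spread between replicates are unknown and the comparison with neural stem cells was not made here. A contact in more cells and a more frequent contact per cell cannot be told apart in such a list.

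As background, MAP kinases of the ERK, JNK and p38 families are switched on by phosphorylation of a threonine and a tyrosine in their activation loop. The MAP kinase phosphatases remove both phosphates and bind their substrates through a docking domain. Many of their genes are themselves induced by the kinases, so they act as negative feedback. Growth factors such as FGF and EGF, which drive ERK in neural progenitors, induce Dusp6 in this way. By textbook grouping, DUSP1, DUSP2, DUSP4 and DUSP5 are inducible nuclear enzymes, DUSP6 and DUSP7 are cytoplasmic and prefer ERK, and DUSP8, DUSP10 and DUSP16 prefer JNK and p38.

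Markers of the cell types such a tumor can hold were checked first. For reference, the share with an interaction was 67.8% over all coding genes and their median was 3. All 8 neural stem cell and radial glia markers had interactions, from 7 at Nes and Msi1 to 50 at Hes1 (median 25.5). Of the ependymal markers, 3 of 5 had interactions (median 9, highest 19 at Dnah5), with 0 at Rsph1 and Pifo. Microglia and macrophage markers had them at 7 of 7 genes (median 3, highest 38 at Itgam), endothelial markers at 5 of 5 (median 13) and neuronal markers at 5 of 6 (median 3.5, with 0 at Tubb3). The ependymal and neuronal shares and the microglial and neuronal medians were near the values for all coding genes. The markers were not matched for gene length, with which counts rise. Contacts at a marker are not its expression, and the part of other cell types in the contacts of the phosphatase genes was not tested.

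At least 1 interaction was listed at 8 of the 9 phosphatase genes, where 67.8% of all coding genes had one under the same rule. Dusp4 had 77 interactions, Dusp10 had 36, Dusp5 had 28 and Dusp6 had 25. Dusp16 had 19, Dusp1 had 12, Dusp7 had 7, Dusp2 had 5 and Dusp8 had 0. When the midpoint of a bin had to lie in the window, Dusp4 kept 33 interactions and Dusp5 kept 9, and Dusp10, with 36, came before Dusp4. The 4 genes with the most listed interactions held 166 of the 209 interactions (79.4%). The median per gene was 19, against 3 for all coding genes, whose upper quartile was 9. Counts rise with the number of bins a gene covers. Among the 7 phosphatase genes over at most 3 bins the median was 12, against 1 for the 11031 coding genes of that size, whose upper quartile was 6.

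**Figure D1:**
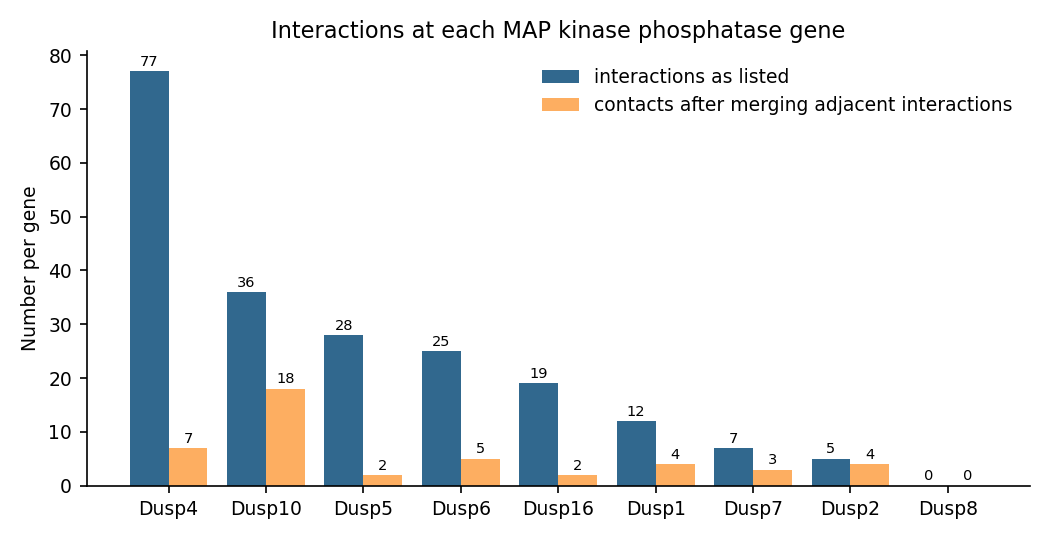
Number of interactions per gene as listed (blue) and number of contacts after interactions with neighbouring bins at both anchors were merged (orange), for the 9 phosphatase genes. Dusp4 has the most listed interactions (77), whereas Dusp10 has the most merged contacts (18).

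Listed interactions often filled adjacent bins. When interactions that differed by at most 1 bin at each anchor were joined, the 209 interactions became 45 contacts and the order changed. Dusp10 had 18 contacts, which 0.469% of coding genes matched or exceeded, and Dusp4 had 7, matched or exceeded by 8.41%. These shares are over coding genes of every size, and Dusp10 covers 5 bins. The bins at its start and at its opposite end had 9 contacts each and shared 9 partners. A partner region reached from both ends can therefore count more than once. Dusp6 had 5, Dusp1 and Dusp2 had 4 each, Dusp7 had 3, and Dusp5 and Dusp16 had 2 each. The median was 4 contacts per phosphatase gene and 2 per coding gene. By listed interactions, 111 coding genes had more than Dusp4, and 3.08% had at least as many as Dusp10.

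**Figure D2:**
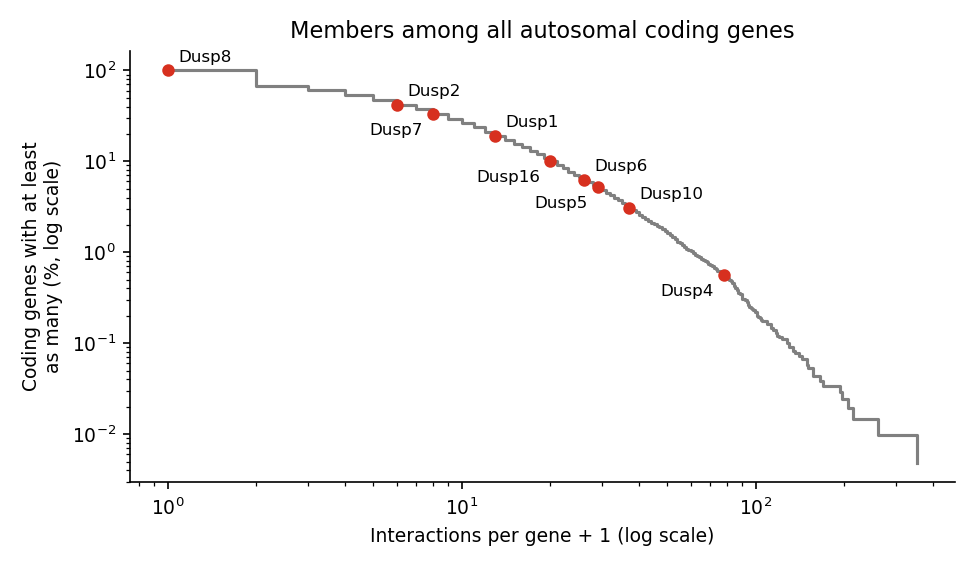
Share of the 20665 autosomal coding genes with at least as many interactions (vertical axis, percent, log scale) against interactions per gene plus 1 (horizontal axis, log scale). Red points mark the 9 phosphatase genes, from Dusp8 with 0 interactions to Dusp4 with 77, a number that 0.556% of coding genes reached.

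Among the inducible nuclear phosphatases, which had 122 interactions in all, the range was widest. Dusp4, which encodes a nuclear phosphatase of ERK, JNK and p38, lies on chromosome 8 from 34807610 to 34819894. Its low-coordinate bin, 34800001 to 34810000, had 43 interactions, a number reached by 0.0868% of anchors, and the next bin had 33. Counts fell directly beside these bins. The third bin, shared with Tnks, the gene of the poly-ADP-ribosyltransferase tankyrase, had 1. The bins just outside had 1 on the low side and 0 on the high side. Farther out, bins 50 and 40 kb lower had 10 and 9 interactions, 8 of each to lower coordinates. A bin of Tnks 20 kb higher had 9, of which 7 ran to lower coordinates. All 77 interactions of Dusp4 ran to lower coordinates. They reached 45 bins between 40 and 660 kb away, of 66 bins from the edge of the gene to the farthest partner. These lay in 7 runs, of which the longest held 19 adjacent bins from 360 to 180 kb. The 2 main bins shared 31 partners, 72.1% of those of the first and 93.9% of those of the second. The median distance was 340 kb, against 180 kb for the whole list.

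Most of the stretch contacted by Dusp4 holds no coding gene. Of the 45 partner bins, 41 lay between coding genes, and 20 of these held an end of a noncoding gene, among them B930018H19Rik and several predicted genes. The remaining 4 lay at the far edge, at the ends of Saraf, encoding a regulator of store-operated calcium entry (5 interactions, from 630 kb), and Leprotl1 (3 interactions, 660 kb). Saraf was the only coding gene lying wholly between Dusp4 and its farthest partner. Tnks, the neighbour on the high side, shared 7 of the 45 partner bins, 26.9% of its own 26 partners. Of 952 pairs of partner bins at a distance the list covers, 27 (2.84%) were themselves listed. The share for other bins at such distances was not computed.

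**Figure D3:**
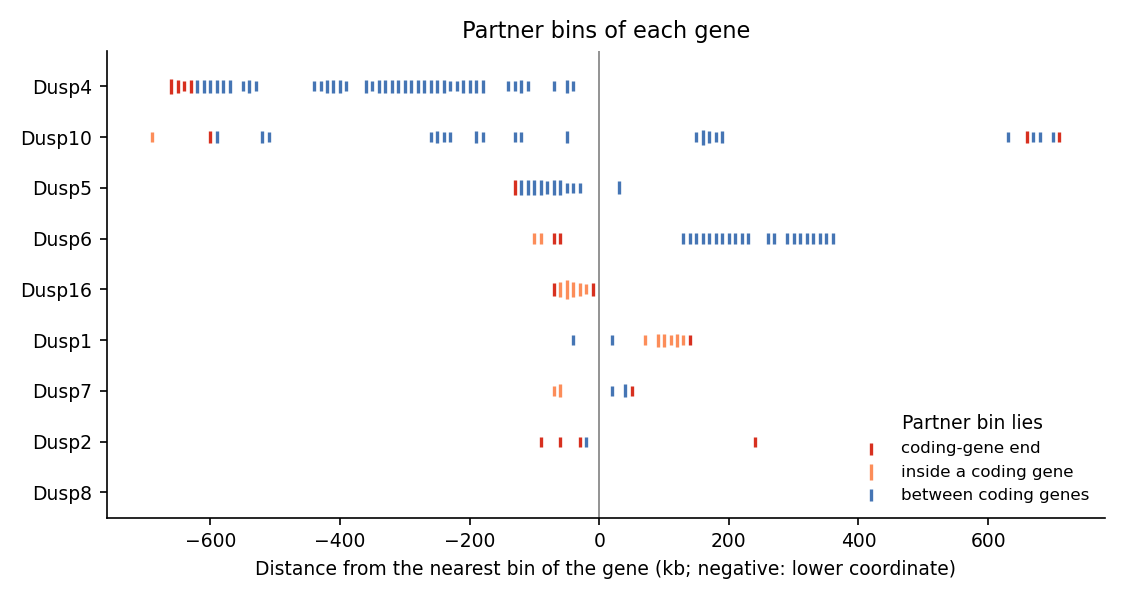
Partner bins of each gene by distance from its nearest bin (horizontal axis, kb; negative values are lower coordinates). Tick colour gives the place of the partner bin and tick length rises with its interactions with the gene; Dusp4 has partners on the low side alone, up to 660 kb, Dusp10 has them on both sides, up to 690 and 710 kb, and Dusp8 has none.

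Dusp5 encodes a nuclear phosphatase that prefers ERK and lies on chromosome 19 from 53529145 to 53541809, on the plus strand. Its 3 bins had 12, 9 and 7 interactions, with the most at the bin of the start. Of its 28 interactions, 26 ran upstream, to an unbroken run of 11 bins from 130 to 30 kb away, and 2 ran to a bin 30 kb beyond the gene. The far end of the run held an end of Smndc1, which encodes a splicing factor and was contacted by all 3 bins; 6 of the 11 partner bins between coding genes held an end of a noncoding gene, such as Mirt1 or 4833407H14Rik. The band was not limited to the gene. The bin just beyond it had 7 interactions and the bin just before it had 4, and all of these partners were partners of Dusp5. Merged, the interactions of Dusp5 were 2 contacts.

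The start of Dusp5 is shown because its promoter holds a motif of serum response factor that is rare among promoters. The 250 bases before the start (chr19:53528895-53529144, GRCm38.p6, plus strand, from RefSeq) are given 5′ to 3′, with motif matches in capitals.
Dusp5: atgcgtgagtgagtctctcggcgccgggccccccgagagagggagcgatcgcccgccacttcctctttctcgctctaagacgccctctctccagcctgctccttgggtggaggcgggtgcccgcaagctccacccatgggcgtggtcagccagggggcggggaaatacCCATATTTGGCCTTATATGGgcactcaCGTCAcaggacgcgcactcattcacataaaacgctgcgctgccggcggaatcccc
They hold a CArG box at 82 bases and another at 72 bases before the start, directly next to each other, and on the opposite strand a TGACG, the core of the cyclic AMP response element, at 55. A CArG box on either strand was found in 1.39% of the 21263 RefSeq promoters of coding genes and TGACG in 20.2%. Among the 8 phosphatase genes with an entry, Dusp5 was the only one with a CArG box.

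Dusp1, an immediate-early gene of growth factor and stress responses, lies on chromosome 17 from 26505591 to 26508472, on the minus strand. The bin of the gene had 9 interactions and the next higher bin had 3. Of the 12, 11 ran to higher coordinates, which is upstream. They met 8 bins from 20 to 140 kb away, 6 of them inside Ergic1, a gene for a protein of the compartment between endoplasmic reticulum and Golgi, and 1 at an end of that gene. A single interaction ran downstream, to a bin 40 kb away that held an end of the noncoding gene Gm34455 and took part in 18 interactions, more than the bin of Dusp1 itself. The median distance was 105 kb and the longest 150 kb. A further 41 listed interactions passed over Dusp1. The contacts to higher coordinates were not limited to the gene. The bin just lower had 4 interactions, all to higher coordinates, and 3 of its 4 partners were partners of Dusp1. The bin just higher had 0.

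The promoter of Dusp1 (chr17:26508473-26508722, GRCm38.p6, minus strand, from RefSeq) is shown for its cyclic AMP response elements, again in capitals.
Dusp1: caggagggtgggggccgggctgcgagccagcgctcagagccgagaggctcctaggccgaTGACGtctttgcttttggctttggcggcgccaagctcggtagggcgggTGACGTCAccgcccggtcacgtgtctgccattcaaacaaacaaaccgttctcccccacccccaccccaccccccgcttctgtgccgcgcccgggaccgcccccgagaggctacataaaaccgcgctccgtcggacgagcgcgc
The full element, TGACGTCA, lay at 143 bases before the start, and a further TGACG lay at 191. The full element was found in 1.92% of coding-gene promoters, and in those of Dusp1 and Dusp8 among the phosphatase genes.

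Dusp2, the small gene of a nuclear phosphatase known from immune cells, lies on chromosome 2 from 127336159 to 127338377. It had 5 interactions, each with a different bin, and both of its bins lay within 2.5 kb of Astl, so none of the 5 can be assigned to Dusp2 alone. Of the 5 partner bins, 4 lay at coding-gene ends. Among these, 2 held ends of Stard7, from 30 kb away, 1 held ends of Ciao1, Snrnp200 and Tmem127 at 90 kb, and 1 held ends of Mrps5 and Zfp661 at 240 kb. Without the window of 2.5 kb, 2 interactions were left. No listed interaction passed over Dusp2.

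Of the cytoplasmic ERK phosphatases, Dusp6 had 25 interactions and Dusp7 had 7. Dusp6, a classical target and inhibitor of FGF signalling through ERK, lies on chromosome 10 from 99263231 to 99267489, on the plus strand, within 1 bin. Its 25 interactions met 25 bins. On the upstream side were 4, between 100 and 60 kb away, of which 2 lay inside Poc1b, encoding a centriolar protein, and 2 at an end of that gene. On the downstream side were 21 bins from 130 to 360 kb away, in runs of 11, 2 and 8 bins, and all of these lay between coding genes. The bin of Dusp6 had a number of interactions that 0.526% of anchors reached.

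The downstream region was contacted by more than Dusp6. Poc1b shared 20 partner bins with it, 80.0% of the 25 partners of each gene, and Galnt4 shared 6. The bins just outside the window of Dusp6 had 11 interactions on the low side and 19 on the high side, and all of their partners were also partners of Dusp6. With a window of 5 kb in place of 2.5 kb, which takes in these bins, the count of Dusp6 rose to 55. A total of 130 interactions passed over the gene, against 0 to 42 for the other phosphatase genes. The partner bins were also linked with each other more than at Dusp4, with 74 of 280 pairs listed (26.4%), though over shorter distances, so the shares were not compared further.

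**Figure D4:**
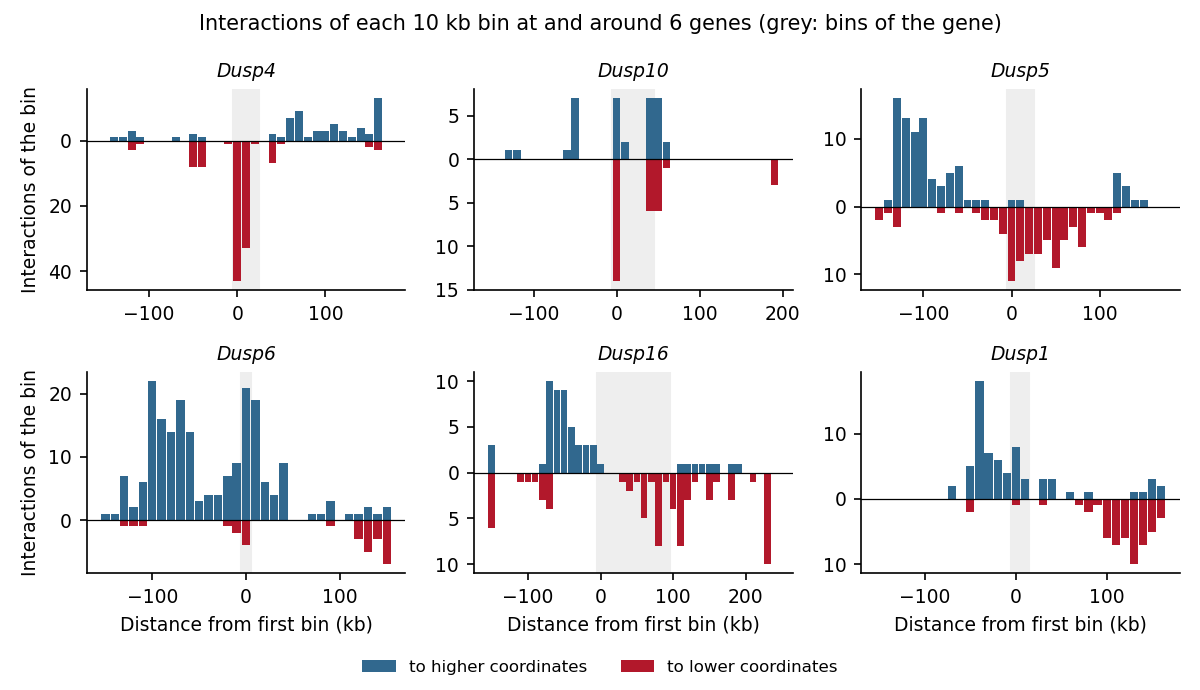
Interactions of each 10 kb bin within 150 kb of 6 genes, drawn upward for partners at higher and downward for partners at lower coordinates; the vertical scales differ and grey marks the bins of the gene. The bins directly beside the 2 main bins of Dusp4 (43 and 33 interactions) have 1 interaction each. The bin of Dusp6 (25) has neighbours with 11 and 19, and the bands at Dusp5 go on beyond the gene.

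The promoter of Dusp6 (chr10:99262981-99263230, GRCm38.p6, plus strand, from RefSeq) is given for comparison, because it lies in an anchor with many partners and held none of the motifs searched.
Dusp6: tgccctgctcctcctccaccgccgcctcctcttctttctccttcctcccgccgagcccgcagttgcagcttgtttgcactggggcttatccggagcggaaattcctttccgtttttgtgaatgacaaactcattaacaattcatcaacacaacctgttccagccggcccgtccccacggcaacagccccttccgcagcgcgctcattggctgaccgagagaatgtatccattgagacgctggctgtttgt
The motifs were the full cyclic AMP response element and its core, as spelled above, the CArG box, TGANTCA for AP-1, GGAATG for TEAD factors, the partners of YAP, and CCGGAAG for ETS factors. Each was searched on both strands, and every full response element also counts as its core. The AP-1, TEAD and ETS motifs were in 0 of the 8 promoters, and in 6.13%, 11.7% and 8.98% of coding-gene promoters, in that order. No match says only that these letters are not in these 250 bases. All 8 promoters held more CpG than the median of 10 for coding genes, from 16 at Dusp6 to 34 at Dusp7. At least as many were found in 34.1% of coding-gene promoters for Dusp6 and in 4.46% for Dusp7.

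Dusp7 lies on chromosome 9 from 106368560 to 106375724. Its 3 interactions on the low side met 2 bins inside Poc1a, a gene related to Poc1b. Its 4 on the high side met 3 bins from 20 to 50 kb away, of which the farthest held an end of Rpl29, a ribosomal protein gene, and the others ends of noncoding genes. The longest spanned 80 kb, below the longest of the other 7 phosphatase genes with interactions (150 to 720 kb). Its bins had 4 and 3 interactions, whereas 38 passed over the gene.

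The phosphatases of JNK and p38 had 55 interactions in all, from 0 at Dusp8 to 36 at Dusp10. Dusp10, on chromosome 1 from 184034381 to 184075636 on the plus strand, covers 5 bins. The bin of the start had 21 interactions, the bin of the opposite end had 13, and the bins between them had 2, 0 and 0. The start bin also lay within 2.5 kb of 1700056E22Rik, and 15 of the 36 interactions remained when it was set aside. The 2 end bins shared 9 partners, 42.9% of those of the start and 69.2% of those of the other end. The bin just beyond the gene had 13 interactions, and 10 of its partners were partners of Dusp10.

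Among the phosphatase genes, Dusp10 was the only one with partners beyond 600 kb on both sides. Upstream, 20 interactions met 14 bins in 7 clusters from 50 to 690 kb away, with the end of Hhipl2 at 600 kb. Downstream, 16 interactions met a run of 5 bins from 150 to 190 kb and then 6 bins from 630 to 710 kb, with ends of Hlx, a homeobox gene, and Mtarc1, a gene of a mitochondrial reductase. The Hlx bin took part in 37 interactions. Of the 25 partner bins, 21 lay between coding genes and 3 of these held an end of a noncoding gene. The partners were listed with each other in 10 of 255 pairs (3.92%), again without a share for other bins.

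The promoter of Dusp10 (chr1:184034131-184034380, GRCm38.p6, plus strand, from RefSeq) lies in the start bin and also held none of the motifs searched.
Dusp10: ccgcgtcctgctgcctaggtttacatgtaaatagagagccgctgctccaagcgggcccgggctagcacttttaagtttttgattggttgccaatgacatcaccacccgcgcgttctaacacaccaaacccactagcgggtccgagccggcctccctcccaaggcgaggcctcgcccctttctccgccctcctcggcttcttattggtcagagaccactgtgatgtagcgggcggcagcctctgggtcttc

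Dusp16, on chromosome 6 from 134715468 to 134807063 on the minus strand, is the longest of these genes at 91.6 kb and covers 10 bins. Its 18 outward interactions all ran to lower coordinates, which is downstream, and met 7 adjacent bins from 10 to 70 kb away. Every one of these 7 bins lay inside or at an end of Borcs5, encoding a subunit of a complex that positions lysosomes. The bin of the annotated start, 134790001 to 134800000, had 8 interactions and a bin inside the gene, 134770001 to 134780000, had 5. The remaining interaction joined the start bin to the low-coordinate end of the gene. Crebl2, the neighbour on the high side, contacted the same 7 bins, 77.8% of its own 9 partners. The annotated start lies inside the gene body used here, in a different bin from its high-coordinate end. Counting only the gene ends therefore missed the start bin and gave 2 interactions in place of 19. Counting 2.5 kb around the annotated start gave 8.

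Dusp8, a phosphatase gene known for its expression in brain, lies on chromosome 7 from 142079487 to 142095907 on the minus strand and had no listed interaction in any of its 3 bins. It lay in a stretch of 740 kb without an anchor, from 141570001 to 142310000, with the nearest anchors 510 kb lower and 220 kb higher, and no interaction passed over it. The stretch held 23 coding genes, among them mucin genes such as Muc2, keratin-associated protein genes such as Krtap5-2, and the neural kinase gene Brsk2, so the absence was shared by all of them. There were 401 anchor-free stretches of at least this length on the autosomes, of which 26 held as many coding genes. How well reads can be placed in this stretch was not examined.

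The promoter of Dusp8 (chr7:142095285-142095534, GRCm38.p6, minus strand, from RefSeq) is shown because it held more full cyclic AMP response elements than that of Dusp1 while its bin had no listed interaction.
Dusp8: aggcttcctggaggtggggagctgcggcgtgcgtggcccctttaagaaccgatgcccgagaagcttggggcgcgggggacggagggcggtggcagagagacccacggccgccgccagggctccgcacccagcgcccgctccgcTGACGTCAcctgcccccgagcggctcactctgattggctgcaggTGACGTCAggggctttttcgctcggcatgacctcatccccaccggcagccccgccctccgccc
Full elements lay at 107 and at 63 bases before the start. The motif and the contacts are separate descriptions, and 8 promoters are too few to relate them.

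Over all 133 partner bins of the phosphatase genes, 99 (74.4%) lay between coding genes, 16 inside another coding gene and 18 (13.5%, exact 95% interval 8.22 to 20.5%) at an end of another coding gene. The interval covers counting error only, and neighbouring bins are not independent. Of all anchors in the list, 33.0% lay at a coding-gene end. That share also counts anchors at the genes themselves and leaves out no gene's own ends, so it is not a like measure. The share over the partner bins of all coding genes was not computed. Dusp4 alone supplied 45 of the 133 bins; without it, 14 of 88 (15.9%) lay at a coding-gene end. When adjacent interactions were joined, 15 of the 45 contacts (33.3%) reached one; a joined contact can span several bins, and the value for joined contacts of the whole list was not computed. The phosphatase genes differed in how many such ends were within reach: of the bins within 1 Mb, 5.5% lay at a coding-gene end around Dusp6, 13% around Dusp4 and Dusp10, 31% around Dusp2 and 38.5% around Dusp1. A partner bin at an end of another coding gene was present for 8 of the 9 genes, and for 58.8% of all coding genes. The 209 interactions had a median distance of 200 kb and quartiles of 100 and 350 kb, against 180 kb and quartiles of 100 and 300 kb for the list. Medians for Dusp6, Dusp10 and Dusp4 were 210, 245 and 340 kb, whereas 5 of the 8 genes with interactions had medians of 60 to 105 kb, below that of the list.

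The 4 phosphatase genes with the fewest coding neighbours were the 4 with the most listed interactions, though not in the order of their neighbours. Dusp6, Dusp4, Dusp5 and Dusp10 had 5, 10, 11 and 13 other coding genes within 1 Mb and between 25 and 77 interactions. Dusp16 had 20 neighbours and 19 interactions. Dusp2, Dusp7, Dusp1 and Dusp8 had 32, 38, 56 and 68 neighbours and between 0 and 12 interactions. Spearman's rho over the 9 genes was -0.82, given as a description of genes that share 1 list. By joined contacts rho was -0.54 and the order was looser, with 2 contacts at Dusp5, which has 11 neighbours, and 4 at Dusp1, which has 56. Over all coding genes rho for listed interactions was -0.11, over those of at most 3 bins it was -0.017, and the median was 4 interactions for genes with up to 13 neighbours and 3 for genes with at least 32.

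The kinases that these phosphatases act on and the rest of the pathway were counted under the same rule, from 7 lists of 70 genes, of which 66 lay on the autosomes. Of these, 60 had an interaction (90.9%), with a median of 7, and 11 had more than the median phosphatase gene; over all coding genes the share was 67.8% and the median 3. The lists describe function and differ in gene length, so their medians are not set against each other by a test. Among the ERK cascade, 13 of 14 genes had an interaction (median 6.5), led by the scaffold gene Ksr1 with 58 and the exchange factor gene Sos2 with 50. In the JNK cascade 9 of 10 had one (median 5), with 122 at the kinase gene Map3k1, 26 at Map3k4 and 8 at Map2k4, and 0 at Mapk8.

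The p38 cascade had interactions at 11 of 12 genes and a median of 12.5, with 39 at Map3k5, 30 at Map3k7 and 28 at Tab2, all upstream activators, and 0 at Tab1. In the ERK5 cascade 4 of 4 had one (median 5), led by Map3k3 with 10. Kinases downstream of MAP kinases had them at 5 of 5 genes (median 4), with 26 at Rps6ka5 and 17 at Rps6ka1. Other phosphatases of MAP kinases had them at 7 of 7 (median 10), with 20 at Ptpn7 and 11 each at Ptpn5 and Ptprr. The atypical and other dual-specificity phosphatases, most of which lack the docking domain, had interactions at 11 of 14 genes and a median of 1.5, below the 3 of all coding genes. Dusp13 had 32, Styxl1 had 16 and Dusp23 had 13, whereas Dusp14, Dusp18 and Styx had 0.

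**Figure D5:**
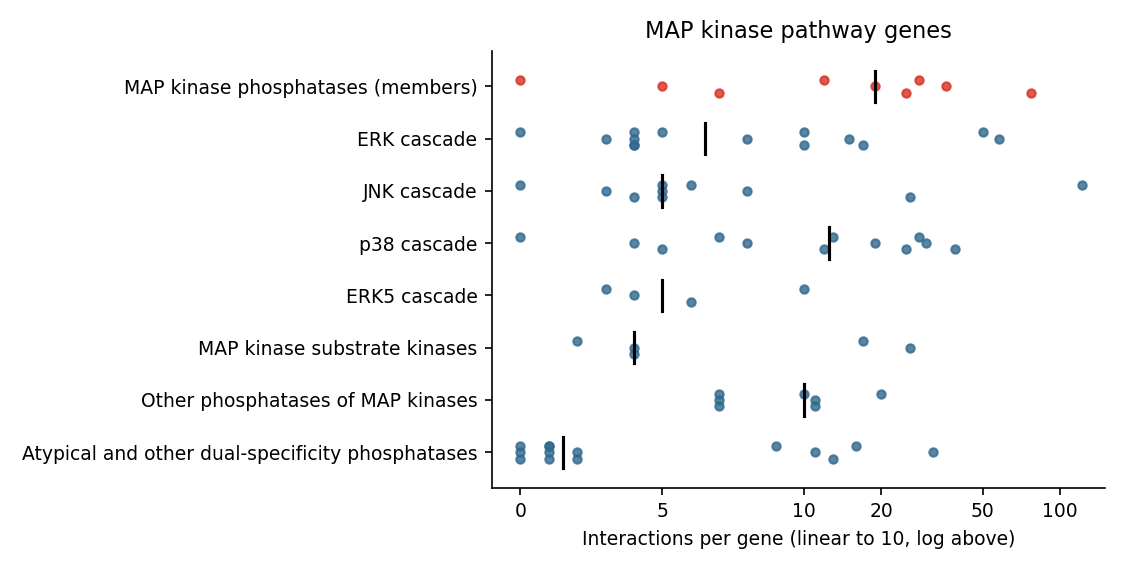
Interactions per gene (horizontal axis, linear to 10 and log scale above) for the 9 phosphatase genes (red) and the 7 pathway lists (blue); points are genes and black lines are medians. The phosphatase genes run from 0 to 77 with a median of 19, and the atypical phosphatases from 0 to 32 with a median of 1.5.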

How the data were processed

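The deposited positions are 1 list, with no value besides the chromosome, start and end of both anchors, per the file headers. HiChIP was done with a micrococcal nuclease kit, per the labels' protocols, although the sample titles say ChIP-seq. BWA and the mm10 build are named, per the submitters' processing notes; which program called the interactions, at what threshold and on which pooled libraries is not given in the sources used here. Adjacent bins called separately raise the counts, which depend on that caller. Anchors were printed with positions counted from 1. Genes came from the RefSeq annotation of GRCm38.p6, the assembly of mm10, and strands and promoters from its promoter table, which held 8 of the 9 genes; Dusp4 had no entry. 

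Interactions per gene are distinct interactions with an anchor in any bin of the gene. Distances to partners run from the nearest bin of the gene, and distances of interactions between bin starts. Partner bins were placed at a coding-gene end (2.5 kb around either end), inside or between coding genes. The share of all partner bins at a coding-gene end carries an exact (Clopper-Pearson) 95% interval from scipy 1.17.1, and other shares are given without one. Counting and merging were tested on simulated data. No test across libraries was possible with 1 list. The genes, pathway lists, markers and motifs were chosen with earlier results of these data known, and the motifs after the promoters were at hand. The rule for named genes took the 9 genes, up to 4 partner genes of each and the farthest, and in each pathway list the 3 genes with the most interactions and those with none; not every one is described, and genes sharing partners, noncoding genes and genes of the stretch around Dusp8 were named after their values were seen. Some pathway genes are not reported here.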

Additional observations from a re-analysis of the deposited data

How the results depend on the processing

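No paired analysis was possible because nothing in the list is split by library; for the same reason no replicate could be left out, and a stricter threshold was not run because the list has no scores. At least 1 interaction was found at 8 genes under every setting run, except around the start alone, where 7 of the 8 genes with an annotated start had one. The total of 209 interactions became 96 with 2.5 kb around the start alone (which leaves out Dusp4), 136 when the midpoint of a bin had to lie in the window, and 45 after merging of adjacent interactions. The median of 19 per gene became 12 with gene ends only, 10 around the start, 9 by midpoint and 4 after merging. The share of partner bins at a coding-gene end, 13.5%, became 33.3% of contacts after merging, which weights long runs of bins less, and 47.4% when all annotated genes counted. Windows of 0 and 5 kb and a shortest distance of 40 kb left the total between 202 and 256. Depth is unknown, so Dusp8 had no contact detected at this depth rather than none.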
